A study of Mus musculus with 13 samples.

Results

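The Hippo pathway and its YAP target genes were followed here in whole mouse liver through 10 genes, Yap1, Wwtr1, Tead1, Lats1, Lats2, Amotl2, Ccn1 (also Cyr61), Ccn2 (also Ctgf), Ankrd1 and Nuak2. They were chosen by name, each matched 1 Ensembl gene among the 22048 genes of the count table, and all 10 passed the filter on low counts. The samples were 6 control livers (3 male, 3 female) labelled as not depleted of hepatic stellate cells, 4 livers labelled as depleted of these cells (1 male, 3 female), and 3 livers that were not depleted and were taken 72 h after partial hepatectomy (2 male, 1 female). Stellate cells lie beside the sinusoids and store vitamin A, and partial hepatectomy removes part of the liver so that the remnant regrows. Strain, age, genotype and the means of depletion are not given in the sources used here, and neither is a sham operation for the hepatectomised livers, so surgery and regrowth cannot be told apart.

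In the Hippo pathway, the upstream kinases MST1 and MST2 activate the kinases LATS1 and LATS2, which phosphorylate the coactivators YAP (gene Yap1) and TAZ (gene Wwtr1) and keep them out of the nucleus. Unphosphorylated YAP and TAZ enter the nucleus and bind TEAD factors such as TEAD1, and so raise the transcription of target genes. In the liver the pathway is known for limiting organ size, and several of its targets, Lats2 and Amotl2 among them, encode proteins that hold YAP back. The pathway acts mainly through phosphorylation and location of proteins, which messenger RNA levels do not show.

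TEAD factors recognise a core of 6 bases, GGAATG, written CATTCC when read on the other strand. RefSeq promoter windows of GRCm38.p6 were at hand for 7 of the 10 genes, and not for Ccn2, Tead1 and Nuak2. In the 250 bases before the start site, the core was found on either strand in 5 of these 7 genes (Yap1, Wwtr1, Amotl2, Ccn1 and Ankrd1) and not in the windows of Lats1 and Lats2. Counted by window, 6 of 9 windows of these genes held it (Wwtr1 and Lats2 have 2 start sites each), and of 32851 windows of the same length 12.6% did. The 2 Wwtr1 windows overlap and hold the same copy of the core, which is thus counted 2 times among the 6. The 4 windows below are shown because Ccn1, Amotl2 and Yap1 fell in depleted livers and Ankrd1, with 2 copies, was close to the detection limit. Lats1 also fell there, and its window held no core. Ccn2 and Nuak2, which rose, had no window, so the core cannot be set against the direction of change. The core is in capitals.
Ccn1: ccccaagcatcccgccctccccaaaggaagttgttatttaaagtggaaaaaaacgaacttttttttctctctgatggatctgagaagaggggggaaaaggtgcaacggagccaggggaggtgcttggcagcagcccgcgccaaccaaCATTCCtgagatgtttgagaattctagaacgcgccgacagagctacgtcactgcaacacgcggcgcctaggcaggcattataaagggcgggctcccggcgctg
Amotl2: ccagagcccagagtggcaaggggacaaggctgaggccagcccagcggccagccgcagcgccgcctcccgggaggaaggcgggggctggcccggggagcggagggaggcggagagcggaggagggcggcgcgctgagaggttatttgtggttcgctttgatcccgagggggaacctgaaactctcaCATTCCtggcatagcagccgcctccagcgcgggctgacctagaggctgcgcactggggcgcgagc
Yap1: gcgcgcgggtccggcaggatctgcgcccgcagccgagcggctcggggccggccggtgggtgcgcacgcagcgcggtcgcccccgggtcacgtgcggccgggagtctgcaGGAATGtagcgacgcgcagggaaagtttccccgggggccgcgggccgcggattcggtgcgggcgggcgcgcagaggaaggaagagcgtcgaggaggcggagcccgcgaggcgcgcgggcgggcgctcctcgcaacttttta
Ankrd1: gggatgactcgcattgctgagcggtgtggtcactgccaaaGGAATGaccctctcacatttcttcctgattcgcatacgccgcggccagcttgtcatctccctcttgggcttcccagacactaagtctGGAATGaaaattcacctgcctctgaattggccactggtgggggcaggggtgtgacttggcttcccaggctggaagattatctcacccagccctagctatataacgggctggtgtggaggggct
Each runs 5′ to 3′ towards the start site in the direction of its gene. They lie at chr3:145649986-145650235 (minus strand, Ccn1), chr9:102717554-102717803 (plus strand, Amotl2), chr9:8004597-8004846 (minus strand, Yap1) and chr19:36119845-36120094 (minus strand, Ankrd1). The core begins 103 bases before the start site in Ccn1 and 65 in Amotl2, both in the reverse orientation, and 141 in Yap1. In Ankrd1 it begins 210 and 123 bases before the start site, and only 1.02% of all windows held 2 or more copies. A match of letters describes the sequence and is not evidence of binding.

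Library totals ran from 35360991 to 51008737 counts, at which 3 counts correspond to 0.0588 to 0.0848 counts-per-million (CPM). Summed over 7 hepatocyte genes, levels were between 67003 and 171977 CPM in every library. All 16 stellate cell markers fell in depleted livers, where their summed level was 15.6 to 76.2 CPM, against 343 to 883 CPM in controls and 370 to 697 CPM after hepatectomy. None of the 16 was at 0 in all 4 depleted livers, and 8 were at 0 in at least 1. Depleted replicate 4 held the 76.2 CPM and control replicate 6 the 343 CPM. Control replicate 6 was also lowest among controls for endothelial markers (96.8 CPM) and Kupffer cell markers (52.2 CPM). Hepatectomised replicate 2 was lowest in its group for the same 3 lists (stellate 370, endothelial 100.5 and Kupffer 58.3 CPM) and highest for proliferation genes (908 CPM). Each group holds livers of both sexes and so of at least 2 mice, but the labels do not say that every liver came from a separate mouse, and p-values measure the spread between these samples.

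The first comparison asked how pathway genes differed when stellate cells were depleted. Of the 10 genes, 6 differed from control by edgeR's quasi-likelihood test with Benjamini-Hochberg adjustment over 13831 genes, 2 higher and 4 lower. Among all genes tested, 33.9% differed, 18.9% higher and 15.0% lower. Ccn2 and Nuak2 rose, whereas Ccn1, Amotl2, Yap1 and Lats1 fell, so that the matricellular pair Ccn1 and Ccn2 changed in opposite directions. Without depleted replicate 4, or without control replicate 6, 5 of the 10 passed, Lats1 being the gene lost. The median log2 fold change of the 10 genes was -0.20, beside -0.03 for all genes tested. In whole liver, fewer cells of a type and less RNA per cell cannot be told apart. Stellate markers fell and all 8 monocyte and neutrophil markers, among them Ly6g with 0 counts in every control, rose in the same livers (summed 199 to 322 CPM, against 3.78 to 16.4 CPM in controls). Ly6g entered the test only through the other groups, where it was higher. Of other cell type markers, 2 of 10 endothelial genes (Pecam1 and Vwf) rose, 1 of 7 cholangiocyte genes (Sox9) rose with a list median of -0.17, and of 7 smooth muscle and portal fibroblast genes Thy1 rose and Myh11 and Fbln2 fell. The median of the smooth muscle and portal fibroblast list was -1.29. Without depleted replicate 4 it was -1.65, with 1 gene higher and 5 lower. The part of these cell type markers in the results below was not tested.

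**Figure D1:**
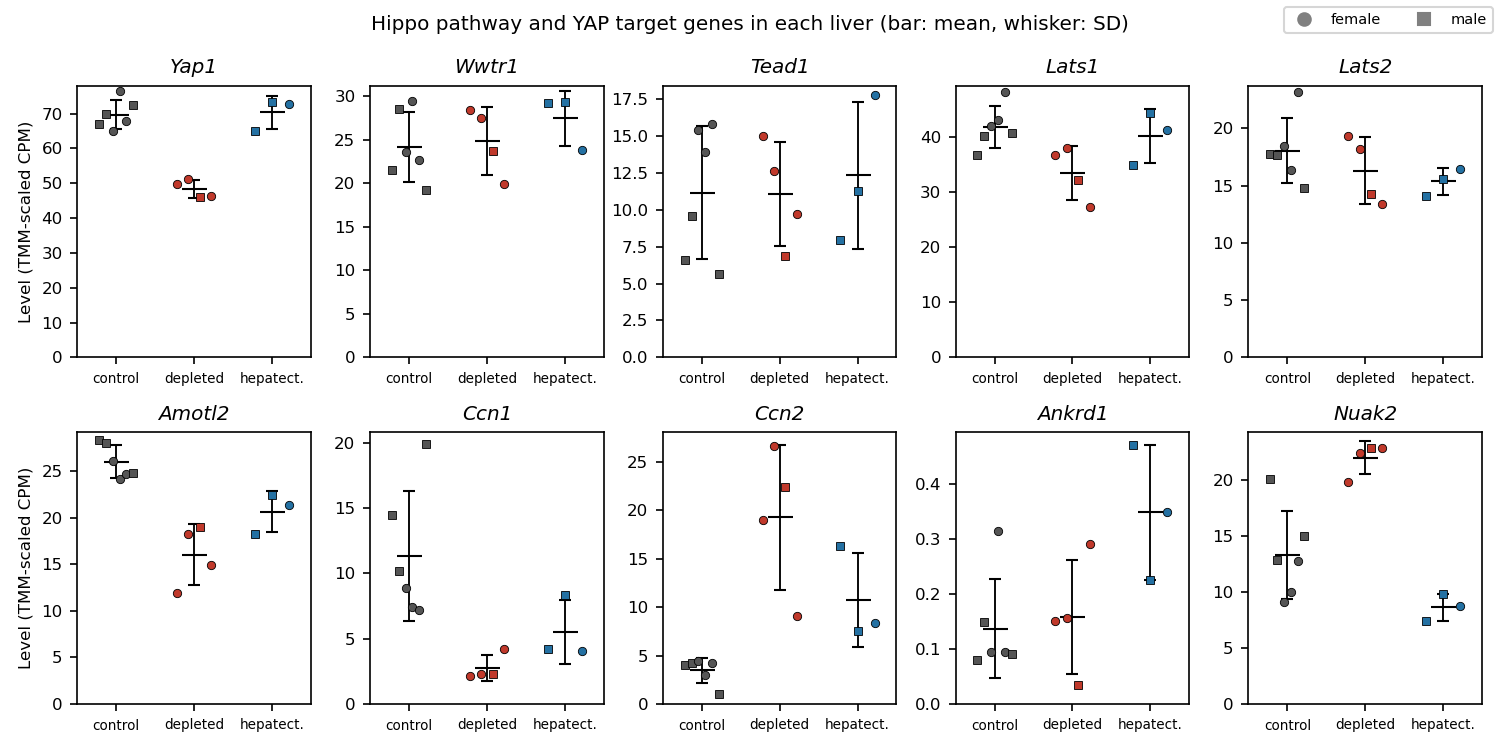
Level of each of the 10 genes in every liver, in CPM after edgeR's TMM scaling (trimmed mean of M values), on linear axes from 0. Circles are female and squares male livers, horizontal bars are group means and whiskers are SD. Yap1, Amotl2 and Ccn1 lie lower in all 4 depleted livers than in any control, and Ccn2 lies higher in all 4 depleted and all 3 hepatectomised livers than in any control.

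Yap1 (chromosome 9, 7931999 to 8004596, minus strand, GRCm38), the coactivator itself, varied little within groups. Its level was 66.9, 69.7, 64.9995, 76.4, 67.7 and 72.3 CPM in control replicates 1 to 6 and 49.7, 51.3, 45.9 and 46.4 CPM in depleted replicates 1 to 4. The groups did not overlap, as was so for 28.4% of all genes tested (16.5% higher, 11.9% lower) and, among the 10, for Ccn2 (higher), Yap1, Amotl2 and Ccn1 (lower). Yap1 went from 69.7 ± 4.13 CPM in controls (SD, n = 6) to 48.3 ± 2.60 CPM in depleted livers (SD, n = 4), a log2 ratio of -0.54 ± 0.09 (SE, adjusted p by edgeR = 0.000638). It lay between -0.57 and -0.51 with each library left out.

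Wwtr1 (chromosome 3, 57455649 to 57575910, minus strand), which encodes the YAP paralogue TAZ, did not pass the test. It ranged from 19.2 to 29.4 CPM in controls and from 19.9 to 28.4 CPM in depleted livers, and the log2 ratio was 0.03 ± 0.15 (SE, adjusted p by edgeR = 0.888). Scaled per length, as CPM per kilobase of exon (RPKM), Yap1 exceeded Wwtr1 in each control, by a ratio of 1.26 to 1.94. In depleted livers the ratio was 0.904, 0.964, 1.00 and 1.21, below every control. The difference between the fold changes of Yap1 and Wwtr1 was not tested.

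Tead1 (chromosome 7, 112679318 to 112906807, plus strand), the DNA-binding partner, did not pass the test, at 11.1 ± 4.50 CPM (SD, n = 6) in controls and 11.04 ± 3.51 CPM (SD, n = 4) in depleted livers. Its log2 ratio was -0.21 ± 0.18 (SE, adjusted p by edgeR = 0.417). Within groups its levels split by sex, as described further on.

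Of the kinases that inhibit YAP, Lats1 passed the test and Lats2 did not. Lats1 (chromosome 10, 7681209 to 7716458, plus strand) fell from 41.8 ± 3.82 CPM in controls (SD, n = 6) to 33.5 ± 4.88 CPM in depleted livers (SD, n = 4), a log2 ratio of -0.35 ± 0.12 (SE, adjusted p by edgeR = 0.0393). The control range of 36.7 to 48.2 CPM overlapped the depleted range of 27.2 to 37.9 CPM. The call was lost when any of control replicates 3, 4, 5 and 6 or depleted replicates 1, 3 and 4 was left out, with log2 ratios of -0.40 to -0.26 (the latter without depleted replicate 4) and adjusted p between 0.0303 and 0.104 over the 13 such fits, and also with library size alone (adjusted p = 0.129), without the low-count filter (0.0524), without the sex term (0.0561) and in females only (0.171). Lats2 (chromosome 14, 57642077 to 57758388, minus strand), both a kinase and a YAP target, was at 18.1 ± 2.84 CPM (SD, n = 6) and 16.3 ± 2.91 CPM (SD, n = 4), with a log2 ratio of -0.20 ± 0.14 (SE, adjusted p by edgeR = 0.303).

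Amotl2 (chromosome 9, 102716672 to 102733418, plus strand) encodes a junction scaffold of the angiomotin family that binds YAP, and it is a YAP target. Control replicates 1 to 6 had 28.4, 28.0, 26.2, 24.2, 24.8 and 24.8 CPM, and depleted replicates 1 to 4 had 11.97, 18.3, 19.0 and 14.9 CPM. All depleted livers lay below all controls. The log2 ratio was -0.67 ± 0.14 (SE, adjusted p by edgeR = 0.0021).

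Ccn1 (chromosome 3, 145646976 to 145649981, minus strand) encodes a secreted matricellular protein and is among the most used readouts of YAP activity. Its control levels were 14.4, 10.2, 8.85, 7.42, 7.21 and 19.9 CPM in replicates 1 to 6, and its depleted levels 2.16, 2.28, 2.27 and 4.21 CPM in replicates 1 to 4. The ranges did not overlap, and depleted replicate 4, with the highest stellate marker sum of its group, had the highest Ccn1 of it. In the other groups the highest Ccn1 was in the liver with the lowest stellate marker sum, control replicate 6 (343 CPM) and hepatectomised replicate 2 (370 CPM). Ccn1 fell 3.50-fold, a log2 ratio of -1.81 ± 0.34 (SE, adjusted p by edgeR = 0.00124). It was -2.14 without depleted replicate 4, -1.70 without control replicate 6 and -1.48 without depleted replicate 3, the value nearest 0 of the 13 fits.

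Ccn2 (chromosome 10, 24595442 to 24598683, plus strand), the paralogue of Ccn1 and a fibrosis-associated matricellular factor, went the other way. Control replicates 1 to 6 had 4.02, 4.20, 4.46, 2.97, 4.24 and 1.05 CPM. Depleted replicates 1 to 4 had 19.0, 26.7, 22.4 and 9.11 CPM. Each depleted liver lay above every control, and Ccn2 rose 5.54-fold, a log2 ratio of 2.47 ± 0.40 (SE, adjusted p by edgeR = 0.000511). Without depleted replicate 4 the value was 2.69, and without control replicate 6 it was 2.31.

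In RPKM, Ccn2 was the eighth of the 10 genes in controls by mean level (1.22) and the first in depleted livers (6.75). Ccn1 came after Yap1 and Lats1 in controls (5.61) and eighth in depleted livers (1.35). The ratio of Ccn2 to Ccn1 in RPKM ran from 0.0373 to 0.415 in controls and from 1.53 to 8.23 in depleted livers. After hepatectomy it was 2.75, 0.639 and 1.47 in replicates 1 to 3, all above the controls, with replicate 1 inside the depleted range. The lowest ratio of all belonged to control replicate 6 and the lowest of the depleted livers to replicate 4.

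**Figure D2:**
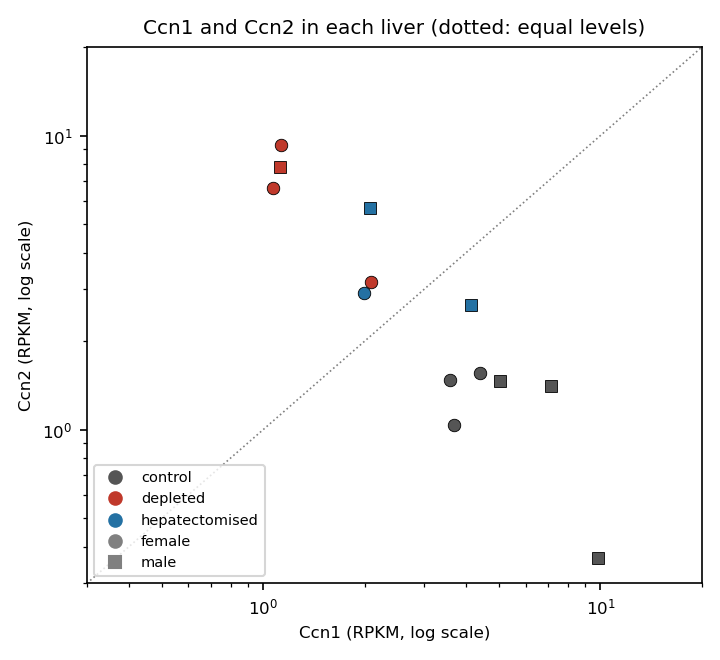
Ccn1 (horizontal) against Ccn2 (vertical) in each liver, both in RPKM on log axes, with 1 point per liver and a dotted line of equal levels. The 6 controls lie below the line, with ratios of Ccn2 to Ccn1 of at most 0.415, and the 4 depleted livers lie above it, at 1.53 or more.

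Nuak2 (chromosome 1, 132316126 to 132333488, plus strand), an AMPK-related kinase that YAP induces and that acts on the actin cytoskeleton, rose with Ccn2. It was at 9.16 (lowest), 12.8 (median) and 20.1 CPM (highest, replicate 1) in controls and at 19.8, 22.4, 22.9 and 22.9 CPM in depleted replicates 1 to 4. Control replicate 1 lay above depleted replicate 1, and the other depleted livers exceeded all controls. The log2 ratio was 0.83 ± 0.18 (SE, adjusted p by edgeR = 0.00317).

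Ankrd1 (chromosome 19, 36111965 to 36119844, minus strand), a nuclear ankyrin-repeat protein abundant in stressed heart muscle, was barely detected in liver. Its counts were 3, 6, 4, 14, 4 and 3 in controls, 7, 7, 2 and 13 in depleted livers and 16, 8 and 14 after hepatectomy. A difference between depleted and control livers was not detectable at this depth, at a log2 ratio of -0.08 ± 0.56 (SE, adjusted p by edgeR = 0.93).

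The genes upstream and beside the 10 were read from lists of known pathway members. Of 24 Hippo kinases, scaffolds and upstream regulators, 3 rose and 3 fell in depleted livers and 18 did not pass. The risers were Stk4, the gene of MST1 (log2 fold change 0.52 ± 0.12, SE), Map4k4, a kinase that can activate LATS (0.94 ± 0.23), and Rassf1, a scaffold of MST kinases (1.04 ± 0.24), and the adjusted p-values by edgeR were 0.0043, 0.0067 and 0.0052. The genes that fell were Frmd6, an upstream scaffold (-0.87 ± 0.19), Taok3, a kinase of the TAO family (-0.74 ± 0.12), and Mob1b, a cofactor of LATS (-0.53 ± 0.12), and the adjusted p-values by edgeR were 0.0036, 0.0004 and 0.0045. Over all genes 18.9% rose and 15.0% fell, so the list's share of calls was not above that of the table. The list's median was -0.12, beside -0.03 for all genes, and 0.03 without depleted replicate 4, where 4 rose and 3 fell. Stk3, the gene of MST2, was at 12.7 ± 0.147 CPM (SD, n = 4) against 11.9 ± 1.93 CPM (SD, n = 6) and did not pass (edgeR adjusted p = 0.612).

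Among the other TEAD factors and their cofactors, 5 of 6 genes were tested and Vgll2 had 0 counts in every library. Tead3 fell from 10.2 ± 1.03 CPM in controls (SD, n = 6) to 5.82 ± 0.810 CPM in depleted livers (SD, n = 4), a log2 ratio of -0.78 ± 0.17 (SE, adjusted p by edgeR = 0.0037). Tead2, Tead4, Vgll3 and Vgll4 did not pass.

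Of 16 other genes used as YAP targets, 15 were tested, 4 rose, 3 fell and 8 did not pass, with a median of -0.16, beside 18.9% higher and 15.0% lower over all genes. Myof, the gene of the membrane repair protein myoferlin, rose from 3.55 ± 1.68 CPM in controls (SD, n = 6) to 31.8 ± 9.73 CPM in depleted livers (SD, n = 4), a log2 ratio of 3.14 ± 0.39 (SE). Axl, the gene of a receptor tyrosine kinase of macrophages and stromal cells, rose from 29.0 ± 12.1 CPM in controls (SD, n = 6) to 121 ± 23.6 CPM (SD, n = 4), by 2.03 ± 0.44 (SE). Fjx1 also passed, at 0.0316 CPM in controls, below the level of 3 counts, and 0.326 CPM in depleted livers, and it entered the test only through the group where it was high. Asap1, named outside the naming rule after its values were seen, rose by 0.46 ± 0.14 (SE). Igfbp3, which binds insulin-like growth factors, fell from 26.4 ± 11.8 CPM in controls (SD, n = 6) to 0.397 ± 0.745 CPM (SD, n = 4). Depleted replicate 4 held 1.51 CPM of it (68 counts), and depleted replicates 1 to 3 had 1, 0 and 3 counts. Rbms3, an RNA-binding protein gene, fell by 3.58 ± 0.41 (SE), and Arhgef17 fell by 3.35 ± 0.32 (SE), both on the log2 scale. Beside the rise of Axl, 3 of 6 Kupffer cell markers rose (summed 570 to 1288 CPM in depleted and 52.2 to 465 CPM in control livers), and their part in the result was not tested. Of the other 3, Cd5l was at 371 against 129 CPM on average, Clec4f at 18.8 against 111 CPM and Vsig4 at 20.1 against 35.2 CPM, and without depleted replicate 4 the list had 2 higher and 1 lower. Without depleted replicate 4, where 14 target genes were tested, 4 rose and 5 fell.

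CCN1 and CCN2 are also immediate early genes, which cells transcribe within minutes of growth factor or stress signals. Of 12 tested immediate early genes, 9 rose and 0 fell in depleted livers, with a median log2 fold change of 1.91 (edgeR), beside 18.9% higher and 15.0% lower over all genes. Dusp1, a phosphatase gene, rose from 15.5 ± 9.30 CPM in controls (SD, n = 6) to 78.9 ± 15.5 CPM (SD, n = 4), and Fos rose from 0.645 ± 0.351 CPM in controls (SD, n = 6) to 4.32 ± 1.08 CPM (SD, n = 4). Ccn2 rose in the same livers and Ccn1 fell.

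Livers 72 h after hepatectomy were next compared with the same controls, so that both comparisons share them. By edgeR Ccn2 differed among the 10 genes, 1 of 10 beside 8.42% of all genes tested (6.06% higher, 2.36% lower), a share close to that of the table as a whole. DESeq2 called 3 of the 10, limma-voom 0 and edgeR with library size alone 4. Ccn2 was at 16.3, 7.58 and 8.36 CPM in hepatectomised replicates 1 to 3, each above every control. It rose 3.05-fold, a log2 ratio of 1.61 ± 0.43 (SE, adjusted p by edgeR = 0.0391). The call did not hold in 10 of the 13 fits with a library left out, where the adjusted p reached 0.143 without hepatectomised replicate 1, nor with limma-voom (adjusted p = 0.0534). The log2 ratio lay between 1.19 and 1.84 over the 13 fits (1.35 without control replicate 6), and the call was lost without any of control replicates 1 to 5, depleted replicates 1 and 3 and hepatectomised replicates 1 to 3.

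Yap1 was at 64.9, 73.4 and 72.8 CPM after hepatectomy, replicate 1 just under the lowest control and the others within the control range, with a log2 ratio of 0.02 ± 0.10 (SE, adjusted p by edgeR = 0.927). Wwtr1, Tead1, Lats1 and Lats2 had log2 fold changes of 0.19 ± 0.17, 0.33 ± 0.19, -0.03 ± 0.13 and -0.20 ± 0.15 (SE), and the adjusted p-values by edgeR were 0.528, 0.317, 0.913 and 0.465.

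Among the targets that did not pass, Ccn1 was at 4.17, 8.37 and 4.02 CPM, so that replicates 1 and 3 lay below every control. Its log2 ratio was -1.10 ± 0.35 (SE, adjusted p by edgeR = 0.0698), and it was -0.90 without control replicate 6 and -1.40 without hepatectomised replicate 2. The adjusted p was 0.0301 without depleted replicate 4 and 0.048 without depleted replicate 3, libraries that enter this contrast through the shared scaling, dispersion and sex term. DESeq2 passed Ccn1 and Nuak2 as lower too, at adjusted p-values of 0.0145 and 0.0244. Amotl2 had 18.2, 22.5 and 21.4 CPM, all below every control, at -0.35 ± 0.15 (SE, adjusted p by edgeR = 0.161). Ranges that did not overlap were found for 13.7% of all genes, 7.41% higher and 6.25% lower after hepatectomy, and among the 10 for Ccn2 (higher) and Amotl2 (lower).

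Nuak2 was at 7.38, 9.82 and 8.75 CPM, with replicates 1 and 3 below every control, at -0.64 ± 0.20 (SE, adjusted p by edgeR = 0.0627). Ankrd1 averaged 0.348 ± 0.123 CPM (SD, n = 3) against 0.137 ± 0.0903 CPM (SD, n = 6), at 1.52 ± 0.58 (SE, adjusted p by edgeR = 0.126), from at most 16 counts in a library.

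These levels are relative to TMM scaling. With library size alone as the scale, the median over all genes moved on the log2 scale from -0.02 to -0.24 after hepatectomy. Under that scaling Yap1 was at -0.19 and Wwtr1 at -0.03, opposite in sign to the values above and neither past the threshold, and Ccn1, Amotl2 and Nuak2 passed as lower.

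After hepatectomy 6.06% of all genes tested rose and 2.36% fell by edgeR, the shares to set beside the edgeR list counts with TMM scaling below. Among the 24 kinases and scaffolds, Map4k4 rose by 1.25 ± 0.25 on the log2 scale (SE), while Mob1b fell by 0.51 ± 0.13 and Taok3 by 0.47 ± 0.13 (SE), and the adjusted p-values by edgeR were 0.0119, 0.0313 and 0.041. With library size alone 1 of the 24 was higher and 8 were lower, and the list's median went from -0.23 to -0.44. That scaling gave 626 higher and 1566 lower of all 13831 genes tested, and moved the median of all genes from -0.02 to -0.24. Of the 5 tested TEAD factors and cofactors 0 passed by edgeR, by DESeq2 or by limma-voom, and 0 had an unadjusted p under 0.05. Of the 15 tested targets 0 passed by edgeR and limma-voom and 1 (F3, lower) by DESeq2, with 2 (F3 and Dock5) at an unadjusted edgeR p under 0.05. With library size alone 2 targets passed, both lower. F3 and Dock5 are named after their values were seen. In the same livers 6 of 12 immediate early genes rose, Junb from 25.3 ± 10.1 CPM in controls (SD, n = 6) to 115 ± 39.8 CPM (SD, n = 3) among them. Of 5 mesothelial markers 4 rose (summed 7.38 to 40.7 CPM, against 0.45 to 3.21 CPM in controls), and 2 of 7 cholangiocyte markers, Krt7 and Krt19, did too. So did 5 of 8 monocyte and neutrophil markers (summed 33.6 to 44.6 CPM, against 3.78 to 16.4 CPM), 2 of 7 smooth muscle and portal fibroblast markers (Eln and Fbln2) and 14 of 14 proliferation genes. In depleted livers 10 of the 14 proliferation genes also rose (5 without depleted replicate 4), beside 18.9% of all genes tested. The part of these markers and genes in the rise of Ccn2 was not tested.

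**Figure D3:**
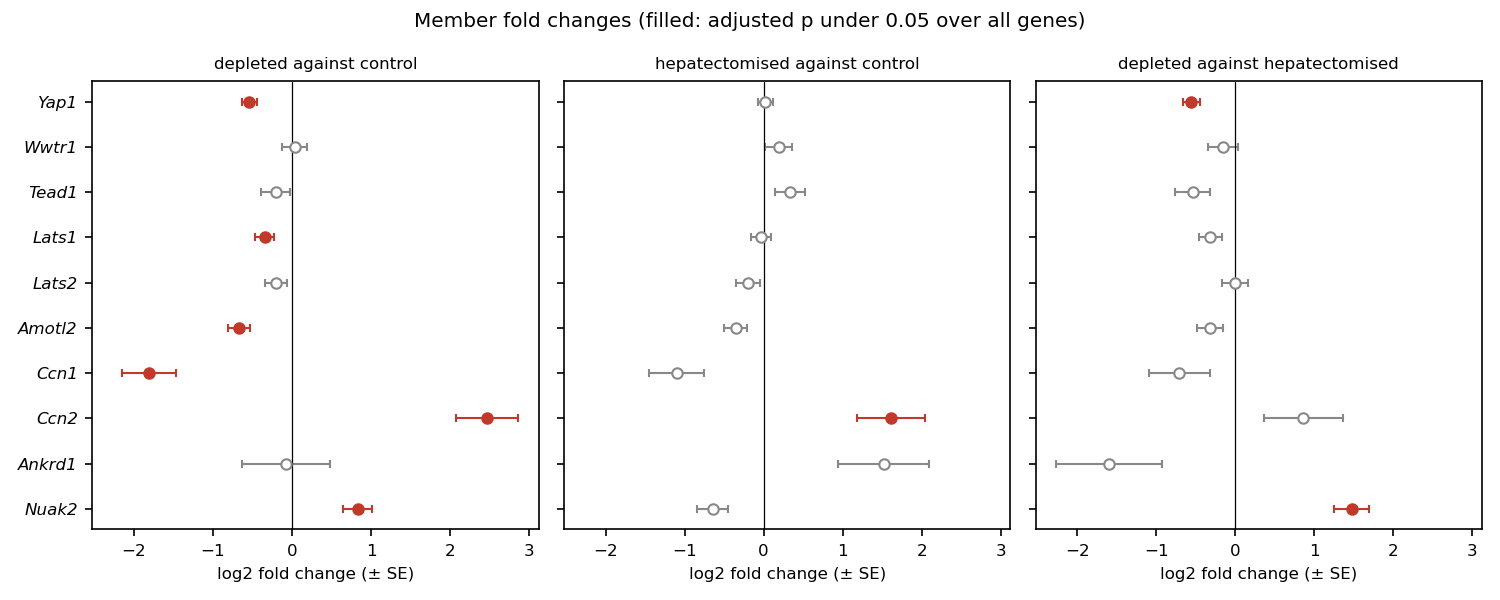
Log2 fold change with SE of the 10 genes in the 3 comparisons, with filled points where the edgeR adjusted p over all genes is under 0.05. Depleted against control livers have 6 filled genes, hepatectomised against control livers have Ccn2 alone, and depleted against hepatectomised livers have Yap1 and Nuak2.

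Depleted and hepatectomised livers were then compared directly, without controls in the contrast. Yap1 and Nuak2 differed, 2 of 10 genes beside 23.4% of all genes tested (13.3% higher and 10.1% lower in depleted livers). The depleted livers held less Yap1, at a log2 ratio of -0.56 ± 0.11 (SE, adjusted p by edgeR = 0.00295), and its ranges of 45.9 to 51.3 CPM and 64.9 to 73.4 CPM did not overlap. With library size alone it was -0.24 (adjusted p = 0.168), where the median of all genes moved from -0.05 to 0.27. Nuak2 was higher in depleted livers by 1.47 ± 0.22 (SE, adjusted p by edgeR = 0.000699), from 7.38 to 9.82 CPM after hepatectomy to 19.8 to 22.9 CPM. Ranges did not overlap for 34.0% of all genes (18.1% higher, 15.9% lower), these 2 of the 10 among them.

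Ccn2 and Ccn1 did not differ between these groups past the threshold, at 0.86 ± 0.50 and -0.71 ± 0.39 (SE), and the adjusted p-values by edgeR were 0.237 and 0.208. Without depleted replicate 4, Ccn1 was at -1.03 and passed (adjusted p = 0.0394). Of the pathway lists, Stk4 and Mob1a were higher in depleted livers, Frmd6, Tead3 and Vgll3 were lower, and the targets split into 3 higher (Myof, Axl and, named after its values were seen, Asap1) and 4 lower (Igfbp3, Ccdc80, Arhgef17 and Rbms3). Over all genes tested 13.3% were higher and 10.1% lower. Vgll3 rests on 1, 8, 7 and 3 counts in depleted replicates 1 to 4 and 9, 11 and 23 in hepatectomised replicates 1 to 3. It entered the test only through groups where it was higher. Of the 5 tested TEAD list genes, DESeq2 called 1 lower, and edgeR without depleted replicate 4 also called 1 lower. With library size alone 7 of the kinases and scaffolds were higher and 1 lower, 1 TEAD list gene was lower, and 4 targets were higher and 3 lower. The median of all genes rose under that scaling too, as given above, so these counts are not a result about the lists. By the main fit 16 of 16 stellate and 4 of 5 mesothelial markers were lower, and 7 of 8 monocyte and neutrophil markers were higher. Of 7 smooth muscle and portal fibroblast markers 1 was higher and 4 were lower. Their part in these results was not tested.

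Ordered by mean CPM over the 3 groups, Ccn2 went from control through hepatectomised to depleted livers, with hepatectomised and depleted ranges overlapping. Ccn1 and Amotl2 went the opposite way, from control down through hepatectomised to depleted, also with hepatectomised and depleted ranges overlapping and with no difference from hepatectomised livers past the threshold. Nuak2 was lowest after hepatectomy and highest in depleted livers. Yap1 did not differ between control and hepatectomised livers beyond its spread and was lowest in depleted livers. Wwtr1, Tead1, Lats1, Lats2 and Ankrd1 had ranges that overlapped between every pair of groups.

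The sex term of the same model was read for the 10 genes after their values had been seen, since Tead1 levels split by sex. Female controls had 15.4, 13.9 and 15.8 CPM of Tead1 and male controls 6.59, 9.56 and 5.61 CPM. Depleted females had 9.73 to 15.0 CPM and the depleted male 6.85 CPM, and after hepatectomy the female had 17.8 CPM and the males 7.94 and 11.3 CPM. Within each group all females lay above all males, and the share of all genes that separate in this way was not counted. Tead1 was lower in males by a log2 ratio of -0.96 ± 0.16 (SE, adjusted p by edgeR = 0.0115), 1 of 10 genes beside 1.03% of all genes tested (0.427% higher, 0.6% lower). All 16 stellate and all 10 endothelial markers had log2 ratios below 0 in males (medians -0.67 and -0.39), with 0 past the threshold. The cholangiocyte list and the monocyte and neutrophil list had medians of 0.15 and 0.25. Control replicate 6 and hepatectomised replicate 2, lowest of their groups in stellate, endothelial and Kupffer markers, are both male. The part of these in the Tead1 difference was not tested.

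Ccn1 was higher in the 3 control males (10.2 to 19.9 CPM) than in the 3 control females (7.21 to 8.85 CPM), but its sex term did not pass, at 0.57 ± 0.29 (SE, adjusted p by edgeR = 0.45). Among depleted and hepatectomised livers the sex term rests on 1 male and 1 female, respectively.

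**Figure D4:**
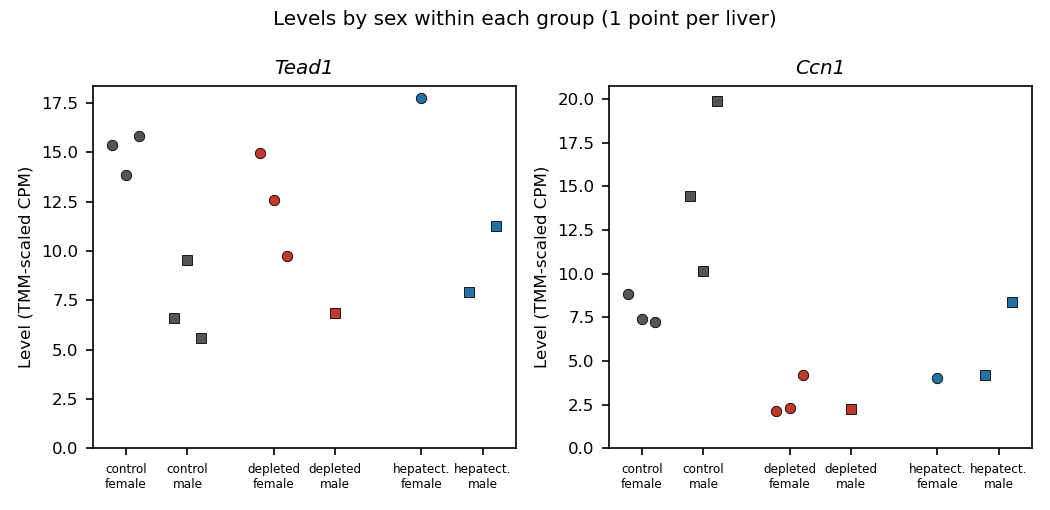
Levels of Tead1 and Ccn1 in CPM, on linear axes from 0, by group and sex, with 1 point per liver. Tead1 is higher in females than in males within each group, and Ccn1 is higher in males among the controls.

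Genes with the most similar profile over all 13 libraries were sought by Pearson's r of log2 CPM. This likeness is a description, since the libraries fall into groups and share their scaling. Nearest to Yap1 were Abcb4, Mmd, Agmat, Pmpca and Hadhb (r from 0.95 to 0.97), with Abcb4, the phospholipid transporter of bile, at a log2 ratio of -1.49 ± 0.17 (SE) between depleted and control livers, beside -0.54 for Yap1. Nearest to Ccn1 were Stk11, Cyp4v3, Pja1, Ppp1r37 and Uqcrc1 (r from 0.96 to 0.97). Stk11, the gene of the kinase LKB1, was at -0.58 ± 0.12 (SE), beside -1.81 for Ccn1. Nearest to Ccn2 were Cfap43, Jdp2, Serinc3, Hdc and Irak3 (r from 0.94 to 0.96), at log2 ratios of 1.44 to 2.85. The choice by likeness fixes the sign of these ratios.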

How the data were processed

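The authors deposited 1 table of raw read counts per gene for 13 whole-liver libraries, with exon coordinates and summed exon length. Per the labels' protocols, RNA was taken up in TRIzol and 500 ng per sample entered a stranded TruSeq mRNA library, run over 2 flowcell lanes. The submitters' processing notes name STAR 2.7.1a, SAMtools 1.15.1 and featureCounts 1.6.4, and the build mm10. Strand and multi-mapping settings are not given in the sources used here, so overlapping and antisense reads cannot be told apart.

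Symbols came from GENCODE M21, which matched 21741 of the 22048 gene IDs. Table coordinates overlapped the same GRCm38 gene for 99.9% of the matched IDs. Promoter windows came from RefSeq (GRCm38.p6).

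Counts were tested with edgeR 4.0.16 in R 4.3.3 (filterByExpr on groups, TMM, robust quasi-likelihood F-test, two-sided). Group and sex were fitted over all 13 libraries, which share the dispersion estimate. Benjamini-Hochberg adjustment ran over 13831 genes, at a threshold of 0.05. CPM and RPKM are TMM-scaled, with a prior count of 2 for log2 CPM. The level of 3 counts covers counting error only, as reads carry no molecular identifiers, whereas SD and SE include the spread between livers.

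All 10 genes are named. From each list at most 6 genes past the threshold are named per comparison, by size of change, and for Yap1, Ccn1 and Ccn2 the 5 genes of most similar profile. Asap1, F3, Dock5, Stk3, and the TEAD list genes and Kupffer markers that did not pass were named outside this rule, after their values were seen. The members and lists were chosen with earlier results of these data known. In the most alike pair of each group the median chi-square of the counts was 4.60, 6.29 and 13.4 (control, depleted, hepatectomised), beside 0.455 for counting noise alone, so no library was counted as a repeat. Alternatives were the scaling, the filter, DESeq2 1.42.0, limma-voom (limma 3.58.1), the covariates, a block on replicate number, fits of 2 groups or of females, and leaving out each library.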

Additional observations from a re-analysis of the deposited data

Results flagged for a closer look

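An outlying library was sought with Dixon's ratio, in which the distance of the extreme library from the next one is set against the whole spread of the group. The 10 genes gave 20 tests in control and depleted livers, 3 were above the 95% critical value, and chance gives about 1.

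Ccn1 in depleted replicate 4 was the highest of the 4 depleted livers, at 4.21 CPM, with a ratio of 0.941. The same library held the highest summed level of stellate markers among depleted livers, 76.2 CPM. Ankrd1 in control replicate 4, at 0.315 CPM from 14 counts, was the highest of the 6 controls, with a ratio of 0.71. Nuak2 in depleted replicate 1, at 19.8 CPM, was the lowest of the depleted livers, with a ratio of 0.845. It is still above 5 of the 6 controls.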

How the results depend on the processing

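The 6 calls among the 10 genes in depleted livers stayed at 5 to 6 with each library left out. Over all genes, depleted against control livers gave 2726 calls in females only and 2960 to 4928 with a library left out, the lowest without depleted replicate 3. Hepatectomised against control livers gave 2192 genes with library size alone (626 higher, 1566 lower), 1939 with DESeq2, 90 in females only and 483 to 1458 with a library left out. Of the 10 genes, 4 were then called with library size alone, 3 with DESeq2, 2 in the fit of 2 groups, 0 with limma-voom and in females only, and 0 to 2 with a library left out. Depleted against hepatectomised livers gave 2105 genes in the fit of 2 groups, 1263 in females only and 1709 to 3850 with a library left out, with 1 of the 10 genes called with library size alone and in females only. The sex term gave 410 genes with DESeq2 and 84 to 269 with a library left out.

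The log2 values that changed sign were all of genes that did not pass. For depleted against control, Ankrd1 was at 0.00886 with library size alone, 0.16 without the sex term and 0.23 in females only. After hepatectomy, library size alone gave Wwtr1 -0.031 and Yap1 -0.19, and females only gave Wwtr1 -0.0691. For depleted against hepatectomised, Lats2 was at 0.00411 with DESeq2 size factors, 0.00424 with DESeq2, 0.31 with library size alone, 0.0839 without the sex term and 0.0300 in females only. There Wwtr1 was at 0.16 and Amotl2 at 0.00044 with library size alone, and Wwtr1 was at 0.0698 in females only. With a library left out, values ran from -0.0269 to 0.125 (Wwtr1) and -0.46 to 0.38 (Ankrd1) in depleted livers, -0.0200 to 0.0695 (Yap1) and -0.14 to 0.0398 (Lats1) after hepatectomy, -0.066 to 0.0815 (Lats2) between those groups, and -0.12 to 0.047 (Wwtr1) and -0.11 to 0.26 (Ccn2) for sex. The cause was not tested.

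Deviations of same-numbered livers correlated at -0.10 to 0.42 (control and depleted), -0.19 to 0.08 (control and hepatectomised) and 0.04 to 0.27 (depleted and hepatectomised), with means of 0.12, -0.05 and 0.16 beside -0.02, 0.01 and -0.05 for different numbers. Not every pair was above 0.1 in any of the 3, so the numbers were not taken as pairing. A block on replicate number gave 632 genes and 0 of the 10 after hepatectomy (Ccn2 at 1.20, adjusted p = 0.0887), 72 genes and 0 of the 10 for sex, Wwtr1 at -0.0736 in depleted against control and Lats2 at 0.055 in depleted against hepatectomised livers. In depleted against control livers the block ended the Lats1 call (adjusted p = 0.119). Ankrd1 had at most 16 counts in a library, and the part of depth in its results was not tested.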
